A study of Arabidopsis thaliana with 4 samples.

Results

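The 10 auxin response factor (ARF) genes examined here lie in the chromosome arms of Arabidopsis thaliana, namely ARF1, ARF2, ARF3, ARF4, ARF5, ARF6, ARF7, ARF8, ARF10 and ARF19. They were chosen by locus, each as the annotated gene plus 1 kb upstream, and are 10 of 27444 protein-coding genes on the nuclear chromosomes. DNA methylation was measured in shoot apices by EM-seq (enzymatic methyl-seq), where enzymes convert unmethylated cytosines, which are then read as T. SNP apices had been treated with 1 mM sodium nitroprusside, a nitric oxide donor, and mock apices with the same solution without it, both for 24 h and both with the wetting agent Silwet at 0.025%, with 2 libraries per treatment. The labels give the genotype of all 4 libraries as Col-0, whereas the methods of the study name apices of ap1/cal plants, whose inflorescences proliferate as masses of meristems and differ in that way from wild-type apices. The methods call the libraries of a treatment biological replicates, but the labels name no separate pools of plants.

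ARF proteins are transcription factors that bind auxin response elements. At low auxin, Aux/IAA proteins hold those ARFs that they bind in check and recruit corepressors of the TOPLESS (TPL) family. Auxin brings Aux/IAA proteins to receptors of the TIR1/AFB family and thereby to degradation. Class A ARFs activate transcription, class B ARFs are mostly repressors, and class C ARFs are targets of miR160. In plants, methylation occurs in 3 contexts, CG, CHG and CHH (H being any base but G). Many transcribed plant genes carry methylation in the CG context alone within the body (gene body methylation), which is copied after replication by MET1 and is sparse towards both ends of the gene. Methylation of all contexts together is typical of transposons and repeats.

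The deposited lists hold sites called methylated, each with a depth and a level, which is the share of methylated reads. They held 4106388 and 3857352 nuclear sites in SNP libraries and 3970449 and 4134559 in mock libraries. Reads at these sites amounted to 49394378 and 42221751 in SNP and to 50875710 and 50075845 in mock libraries, and the median depth was 8 to 10 reads. A cytosine that is absent from a list was either not covered or covered and not called. A complete loss of methylation is therefore not visible at sites shared by all libraries, and shows only as a missing site.

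To find out which ARF genes carry body methylation, listed CG sites were counted against all CG cytosines of each gene, both strands included. In 9 of the 10 genes a large part of the CG cytosines was listed, and in ARF10 almost none was. The class A genes ARF6, ARF7 and ARF8 and the class B gene ARF1 had the densest methylation, and the class B genes ARF2 and ARF3 the sparsest of the 9.

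Among class A genes, ARF7 (AT5G20730, also NPH4, which acts with ARF19 in lateral root formation and tropisms) is encoded by chromosome 5 (7016445 to 7022179, minus strand). Of its 290 CG cytosines, 184 and 183 were listed in SNP libraries and 180 and 183 in mock libraries. ARF6 (AT1G30330, which promotes flower maturation together with ARF8) is encoded by chromosome 1 (10685822 to 10690988, minus strand). Of 276 CG cytosines, 166 and 163 were listed in SNP and 168 and 165 in mock libraries. ARF8 (AT5G37020) lies on the plus strand of chromosome 5 at 14629453 to 14634454. Here 113 and 111 of 184 CG cytosines were listed in SNP libraries, compared with 111 and 112 in mock libraries. In these 3 genes the counts of the treatments overlapped, and between 59.1% and 63.4% of the CG cytosines were listed in each library.

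ARF5 (AT1G19850, also MONOPTEROS, which is required for embryo patterning and for flower initiation at the meristem flank) lies on the plus strand of chromosome 1 at 6886669 to 6891404. It had 66 and 63 of 150 CG cytosines listed in SNP libraries and 65 and 66 in mock libraries. ARF19 (AT1G19220) is encoded by chromosome 1 (6627683 to 6633133, minus strand), with 90 and 86 of 227 CG cytosines listed in SNP and 89 and 87 in mock libraries. Both genes were thus covered less densely than the other class A genes, at 37.9% to 44.0%.

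Of the class B genes, ARF1 (AT1G59750, a repressor that overlaps in function with ARF2 in flowers) lies on the plus strand of chromosome 1 at 21979289 to 21984433. It had 95 and 93 of 158 CG cytosines listed in SNP and 93 and 90 in mock libraries. ARF4 (AT5G60450, which specifies abaxial organ identity together with ARF3) is encoded by chromosome 5 (24308255 to 24312784, minus strand). There, 71 and 69 of 150 were listed in SNP and 69 in each mock library. ARF2 (AT5G62000, which affects leaf senescence and seed size) lies on the plus strand of chromosome 5 at 24910191 to 24915395, with 75 and 78 of 268 listed in SNP and 79 and 74 in mock libraries. ARF3 (AT2G33860, also ETTIN, which patterns the gynoecium) is encoded by chromosome 2 (14325206 to 14328978, minus strand), with 36 and 35 of 168 listed in SNP and 36 and 40 in mock libraries. ARF4 was thus intermediate within its class, and the SNP and mock counts differed by at most 5 sites in any pair of libraries of these 4 genes.

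The class C gene ARF10 (AT2G28350, which acts in germination and the root cap) lies on the plus strand of chromosome 2 at 12113889 to 12116957. It has the most CG cytosines of the 10 genes, 332, but 2 of them were listed in each of the 4 libraries, and these were 8 different sites. No CG site of ARF10 was shared by any libraries. Over the 10 genes, 898 and 883 CG body sites were listed in SNP and 892 and 888 in mock libraries, so that the treatments overlapped. The difference of means was 0.500 sites, with a pooled replicate SD of 7.76 (exact two-sided permutation test, p = 1, where 0.33 is the smallest value that 2 libraries per treatment allow).

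The contrast between a methylated and an unmethylated body is shown by 120 bases of coding sequence from each of ARF7, ARF4 and ARF10. For ARF7 and ARF4 these are the windows with the most CG sites listed in all 4 libraries, and for ARF10 the window with the most CG cytosines. Sequences are those of the RefSeq assembly TAIR10.1, on the strand of the gene. Capitals mark listed cytosines, and a capital G marks a listed cytosine on the opposite strand.
ARF7, chr5:7018911-7019030, minus strand: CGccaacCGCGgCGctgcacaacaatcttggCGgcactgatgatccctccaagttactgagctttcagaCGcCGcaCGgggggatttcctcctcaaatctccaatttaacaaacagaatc
ARF4, chr5:24308837-24308956, minus strand: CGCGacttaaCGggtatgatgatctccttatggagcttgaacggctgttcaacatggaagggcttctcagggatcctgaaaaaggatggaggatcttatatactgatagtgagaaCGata
ARF10, chr2:12114639-12114758, plus strand: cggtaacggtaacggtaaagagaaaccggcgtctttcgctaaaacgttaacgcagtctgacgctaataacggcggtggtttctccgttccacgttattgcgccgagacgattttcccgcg
All 16 CG cytosines of the ARF7 window and 8 of the 10 in the ARF4 window were listed in every library, compared with 0 of the 36 in ARF10. The level in the ARF7 window was 97.6% and 97.2% in SNP and 93.8% and 94.9% in mock libraries. In the ARF4 window it was 86.7% and 86.1% in SNP and 86.4% and 95.7% in mock libraries.

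CG sites of the ARF genes were shared to a large extent between replicates. Among the 978 CG body sites found in at least 1 library, 834 were present in all 4, which is 85.3%, compared with 71.0% of the sites in all protein-coding gene bodies. The sites common to both replicates, as a share of those in either, amounted to 91.7% for the SNP pair and 93.3% for the mock pair. Over all gene bodies these shares were 81.9% and 85.1%. Pairs that combined an SNP and a mock library shared 90.8% to 92.3% of the sites in the ARF genes. Thus libraries of a treatment shared about as many sites as libraries of different treatments. Of the 978 sites, 6 were common to the SNP replicates and missing from both mock lists, 3 of them in ARF7, 2 in ARF1 and 1 in ARF4. Conversely, 4 sites were common to the mock replicates and missing from both SNP lists, 2 of them in ARF6, 1 in ARF2 and 1 in ARF19. Over all gene bodies these counts were 9003 and 4344 of 795660 sites. With at least 3 methylated reads required, the gap to all gene bodies was smaller. Then 84.1% of the ARF sites were present in all 4 libraries, against 75.9% over all gene bodies. The SNP pair shared 89.5% against 84.4%, and the mock pair 93.9% against 89.1%.

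Sites found in a single library differed from the shared ones in level. The 834 shared sites had a level of 88.7%, compared with 25.3% for the 96 sites listed once. Of the entries at single sites, 59.4% rested on 2 methylated reads, the smallest number that is listed, and 2.04% of the entries at shared sites did so. Median depths were 10 reads at shared and 10.5 at single sites. All 8 sites of ARF10 were of the kind listed once.

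The methylation of the ARF bodies was symmetrical and, at sites shared by all libraries, restricted to CG. Of the CG pairs with a site listed in all libraries, 404 were so on both strands and 26 on a single strand. In the CHG context 146 body sites were listed in any library, 7 to 26 per gene, and in CHH 370 sites, 17 to 56 per gene. In both contexts 0 sites were listed in all 4 libraries. Counts of 0 allow a share of up to 2.05% for CHG and 0.811% for CHH by counting error alone. Of these sites, 3 in CHG (in ARF3, ARF4 and ARF6) and 2 in CHH (in ARF1 and ARF8) were listed in 2 libraries, and 0 in both replicates of a treatment. The 8 ARF genes of the chromosome 1 pericentromere, measured in the same way, each had 55 to 137 such non-CG body sites. Of the 5 other ARF genes of the arms, 0 had any.

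Within the genes, shared CG sites were concentrated in the middle and towards the end of the coding sequence. When each gene was divided into 10 equal parts, 0% of the CG cytosines in parts 1 and 2 were listed in all libraries. This share was 17.3% in part 3, 55.2% in part 5, 63.4% in part 8 and 23.4% in part 10. Over all gene bodies tested, the corresponding shares were 3.59% in part 1, 9.21% in part 2, 21.9% in part 3, 41.6% in part 5, 45.7% in part 8 and 17.1% in part 10. The ARF shares include ARF10, which had too few sites to be tested, whereas such genes are absent from the comparison. ARF10 lowers the ARF shares most in part 3, where it holds 69 of the 202 CG cytosines, with 0 shared. The first shared site lay between 1184 bp (ARF7) and 2094 bp (ARF2) after the gene start, and the last between 310 bp (ARF8) and 1011 bp (ARF19) before the gene end.

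**Figure D1:**
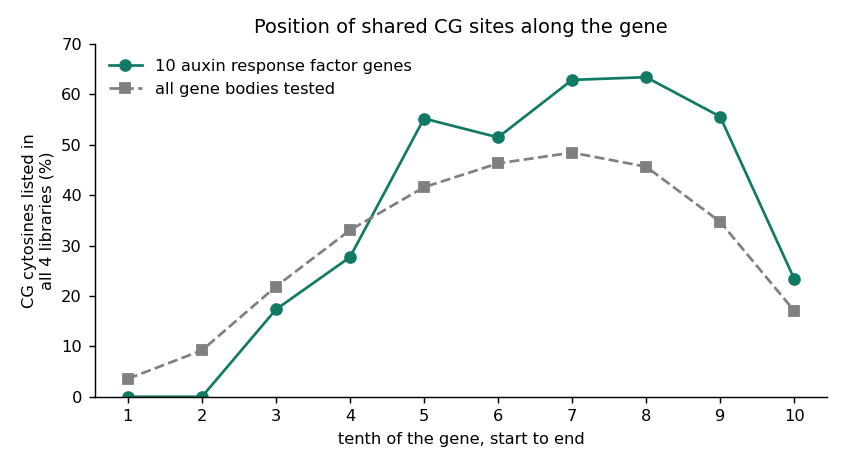
Share of CG cytosines listed in all 4 libraries (y axis, %) in 10 equal parts of the gene from start to end (x axis), for the 10 ARF genes together (circles) and for all gene bodies tested (squares). The ARF genes are at 0% in parts 1 and 2 and reach 63.4% in part 8. They include ARF10, which has no shared site and is not among the gene bodies tested.

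By annotation, 727 of 1572 CG cytosines in coding sequence (46.2%) and 101 of 250 in introns (40.4%) were listed in all libraries, but 6 of 381 in untranslated regions (1.57%). These 6 all belonged to ARF8. Of the 1572 CG cytosines in coding sequence, 300 belonged to ARF10, with 0 listed in all libraries. Introns were methylated unevenly. In ARF8, 24 of 30 intronic CG cytosines were shared, in ARF7 22 of 38 and in ARF1 26 of 52, compared with 2 of 22 in ARF2 and 0 of 13 in ARF3.

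The sites that miR167 and miR160 recognize in the ARF transcripts lie in coding sequence and allow the body methylation to be set against a regulatory element. miR167 targets ARF6 and ARF8, and miR160 targets ARF10. The mature sequences below have the seed, bases 2 to 8, in capitals. In the sites, capitals mark bases that pair with the microRNA by a Watson-Crick match.
ath-miR167a-5p: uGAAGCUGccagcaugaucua
ARF6 site, chr1:10686478-10686498, minus strand: gAGATCAgGCTGGCAGCTTgt
ARF8 site, chr5:14633841-14633861, plus strand: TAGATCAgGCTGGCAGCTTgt
ath-miR160a-5p: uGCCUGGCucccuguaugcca
ARF10 site, chr2:12115741-12115761, plus strand: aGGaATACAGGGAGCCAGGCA
These were the best matches within each gene, with 4 mismatches in ARF6, 3 in ARF8 and 2 in ARF10, whereas the next best had 8 in each. None of the sites holds a CG. In ARF6 and ARF8, however, they lie within methylated sequence, with 43 and 26 shared CG sites within 300 bp, the nearest at 11 bp and 23 bp. Around the ARF10 site there were 0.

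To compare treatments, reads were summed over the CG body sites listed in all 4 libraries with at least 5 reads in each, and tested with edgeR's quasi-likelihood test in all gene bodies with at least 5 such sites. This held for 13379 of the 27444 genes (48.8%) and for 9 of the 10 ARF genes, all but ARF10. Of genes between 3069 and 5735 bp, the range of the ARF genes, 83.1% were tested. Of the 9 genes, 2 were significantly lower in SNP, ARF4 and ARF19, whereas 4.96% of all gene bodies tested were called lower. By edgeR 0 were called higher, against 0.0598% of all gene bodies, and at an unadjusted p under 0.05 it was the same 2 genes that passed, where 20.6% of all gene bodies did. In 6 of the 9 genes, the SNP libraries both had lower levels than either mock library, as in 44.3% of all gene bodies. They were above both in 1 gene, ARF7, as in 6.25% of all. The median difference between SNP and mock was -2.49 percentage points over the 9 genes and -2.68 points over all 13379. Among the 6729 tested bodies with 22 to 137 sites, the range of the ARF genes, 6.69% were called lower.

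ARF4 had the largest difference of the 9 genes at this minimum depth. Over every site listed in all libraries, ARF3 (-9.44 points) and ARF19 (-7.07 points) differed more than ARF4 (-6.90 points), and at 10 reads ARF1 did (-8.18 points). At 5 reads the level of ARF4 over 53 sites was 84.2% and 85.4% in SNP libraries, against 92.7% and 93.8% in mock libraries. The treatments did not overlap, and the means were 84.8% ± 0.882 in SNP and 93.2% ± 0.793 in mock (SD, n = 2 each). Between 535 and 586 reads per library entered this level. The difference was -8.43 points with a log2 odds ratio of -1.30 and an adjusted p of 0.00145 (edgeR, Benjamini-Hochberg over all gene bodies). Without SNP 1 it was -7.80 points with an adjusted p of 0.0667 (edgeR), and at a minimum depth of 10 reads, which left 9 sites, it was -7.37 points (adjusted p = 0.477, edgeR). At 10 reads, 0 of 4236 gene bodies were called by edgeR, with 520 at an unadjusted p under 0.05.

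The difference in ARF4 extended along the methylated part of the gene. In steps of 500 bp from the gene start, each of the 5 steps that held sites had lower levels in the SNP libraries without overlap, and the differences were between -5.76 and -12.2 points. Between 2500 and 2999 bp, for example, the level was 85.3% and 81.2% in SNP and 95.7% and 93.5% in mock libraries. Of the 53 single sites, 18 were lower in SNP without overlap and 3 were higher. These counts were 6 and 0 of 22 in ARF3, 16 and 9 of 63 in ARF19, and 21 and 18 of 137 in ARF7. Single sites were not counted in this way over all gene bodies, so the counts have no background share beside them.

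ARF19 showed a decrease of similar size but with a wider spread in SNP. Its level over 63 sites was 80.7% and 86.1% in SNP libraries, against 90.9% and 91.1% in mock libraries. Means were 83.4% ± 3.87 in SNP and 91.0% ± 0.145 in mock (SD, n = 2 each). The difference was -7.60 points with a log2 odds ratio of -0.99 and an adjusted p of 0.0105 (edgeR, Benjamini-Hochberg over all gene bodies). The call depended on the libraries and on the sites. The adjusted p of edgeR was 0.338 without SNP 1, where the difference was -4.86 points, and 0.0655 without mock 1, with -7.70 points. At a minimum depth of 10 reads the 10 remaining sites gave a difference of 0.0530 points (adjusted p = 0.995, edgeR).

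Unlike in ARF4, the difference in ARF19 was uneven along the gene. The first sites of the methylated part, which were singled out after their values were seen and carry no test, are shown here because they differed most. The stretch holds 124 bases of coding sequence from neighbouring exons and 94 bases of intron sequence, and capitals mark listed cytosines as above.
ARF19, chr1:6631600-6631817, minus strand: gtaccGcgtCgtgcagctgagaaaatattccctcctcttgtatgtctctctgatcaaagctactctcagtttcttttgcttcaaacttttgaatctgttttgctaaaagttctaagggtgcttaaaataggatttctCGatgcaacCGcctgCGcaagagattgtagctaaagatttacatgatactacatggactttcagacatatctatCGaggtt
At the 3 neighbouring CG pairs 1453 to 1469 bp after the gene start, 29 of 55 and 47 of 71 reads were methylated in SNP libraries, which is 52.7% and 66.2%. In mock libraries 60 of 66 and 50 of 53 reads were methylated, which is 90.9% and 94.3%. The SNP levels were lower without overlap at 5 of these 6 sites. Since a read can cover several of these sites, the reads are not independent.

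Further along ARF19 the differences were smaller, but SNP was lower without overlap in 3 of the 6 later steps. Between 1500 and 1999 bp the level was 88.6% and 85.2% in SNP and 81.9% and 88.5% in mock libraries, so that the treatments overlapped. Between 2000 and 2499 bp it was 72.1% and 90.1% in SNP and 98.5% and 97.6% in mock libraries, with SNP 1 far below the others. From 3500 to 3999 bp, where 25 of the 63 sites lie, it was 85.8% and 89.9% in SNP and 90.7% and 88.4% in mock libraries. The difference there was -1.75 points. SNP was lower without overlap between 2500 and 2999 bp, with 81.2% and 87.5% against 100% and 96.7% in mock libraries over 2 sites, and between 4000 and 4499 bp, with 78.7% and 85.6% against 90.8% and 90.0%.

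**Figure D2:**
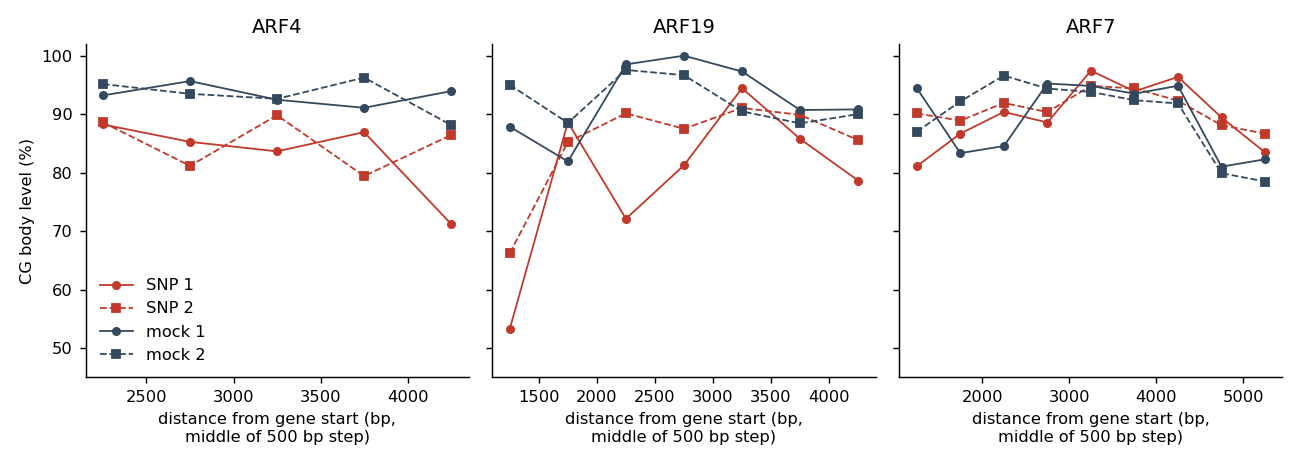
CG body level (y axis, %) in steps of 500 bp from the gene start (x axis) in ARF4, ARF19 and ARF7, with a line for each SNP and each mock library. ARF4 is lower in both SNP libraries in every step, ARF19 in 4 of its 7 steps and most in the first, and the ARF7 lines cross.

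The other class B genes were lower in both SNP libraries, without passing the test. ARF3 had 82.0% and 75.9% in SNP libraries, against 84.6% and 88.4% in mock libraries. It rested on 22 sites and 198 to 217 reads per library, the fewest of the 9 genes, and its difference of -7.54 points had an adjusted p of 0.279 (edgeR). Without SNP 2, the lowest library, the difference was -4.45 points. ARF1 had 91.1% and 90.6% in SNP and 92.6% and 94.0% in mock libraries, a difference of -2.49 points. In ARF2 the level was 86.1% and 84.5% in SNP and 88.4% and 86.8% in mock libraries, and the difference was -2.36 points. The differences of ARF1 and ARF2 were close to the median of all gene bodies, with adjusted p of 0.273 for ARF1 and 0.565 for ARF2 (edgeR). At a minimum depth of 10 reads, the 8 remaining sites of ARF2 overlapped between treatments, with a difference of -0.128 points. The 7 remaining sites of ARF1 did not overlap and differed by -8.18 points.

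Of the other class A genes, ARF8 was lower in both SNP libraries, ARF5 and ARF6 overlapped between treatments, and ARF7 was higher. ARF8 had 90.3% and 90.7% in SNP and 92.7% and 92.2% in mock libraries, a difference of -1.93 points that turned to 2.28 points over the 12 sites with at least 10 reads. ARF5 had 83.0% and 79.8% in SNP and 82.8% and 85.6% in mock libraries. ARF6 had 86.5% and 88.3% in SNP and 89.7% and 88.0% in mock libraries. These genes had adjusted p between 0.402 and 0.630 (edgeR).

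ARF7 was the only gene of the 9 with a positive difference, 1.15 points, and the adjusted p was 0.660 (edgeR). Its level over 137 sites was 90.3% and 90.8% in SNP libraries, against 89.7% and 89.2% in mock libraries. Along the gene, the SNP libraries were below the mock libraries between 2500 and 2999 bp, with 88.6% and 90.4% against 95.2% and 94.4%. They were above them between 4500 and 4999 bp, with 89.4% and 88.1% against 81.0% and 79.9%. The SNP libraries were also above without overlap in the steps from 3000 bp (1.83 points), 3500 bp (1.20 points) and 5000 bp (4.68 points). No other step was below without overlap.

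**Figure D3:**
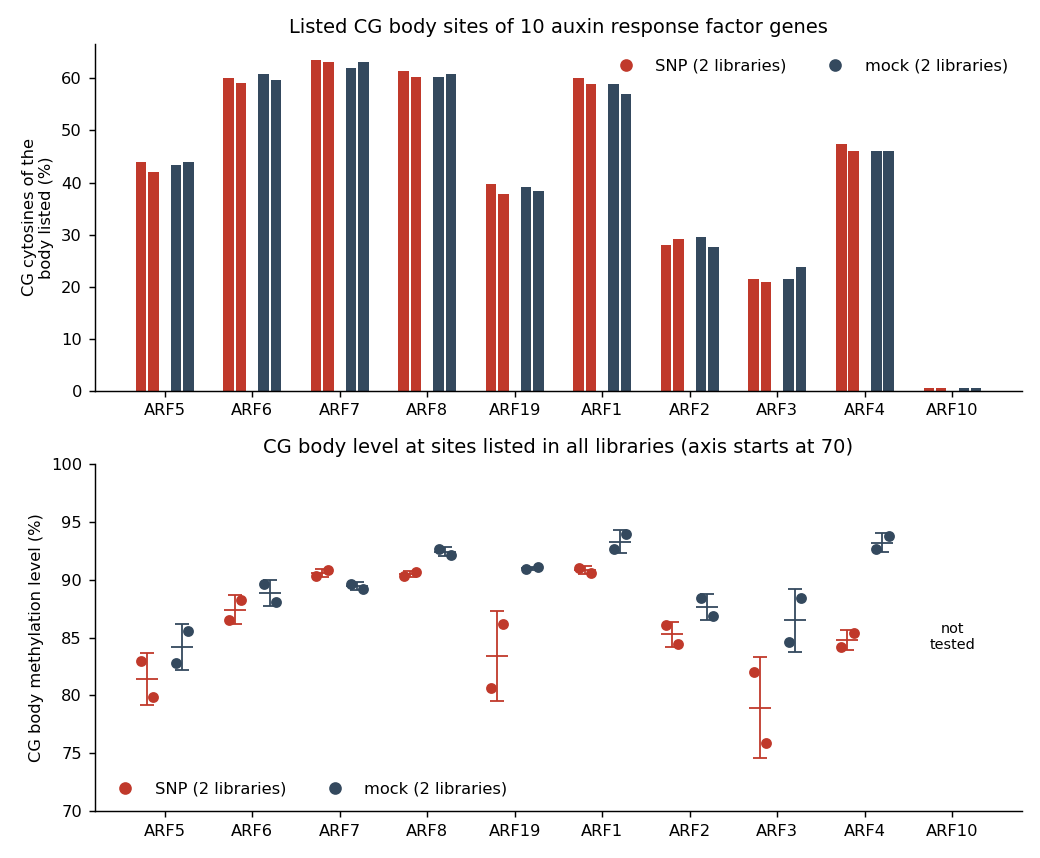
Upper panel, share of the CG cytosines of each body that were listed (y axis, %), with a bar per library. Lower panel, CG body level (y axis, %) per library (points) with mean and SD of each treatment (n = 2 each), where ARF10 has no site to test. ARF4 has 84.2% and 85.4% in SNP against 92.7% and 93.8% in mock, whereas the listed shares of the treatments overlap or touch in every gene.

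The order of the genes by level differed between treatments. In SNP libraries it was ARF1, ARF7, ARF8, ARF6, ARF2, ARF4, ARF19, ARF5 and ARF3, with means between 90.8% and 78.9%. In mock libraries it was ARF1, ARF4, ARF8, ARF19, ARF7, ARF6, ARF2, ARF3 and ARF5, with means between 93.3% and 84.2%. Neighbours in this order mostly overlapped. Libraries did not overlap between ARF8 and ARF6 and between ARF6 and ARF2 in SNP, nor between ARF8 and ARF19 and between ARF19 and ARF7 in mock.

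Summed over the 672 sites of all ARF bodies, the level was 87.2% and 87.5% in SNP libraries, against 89.9% and 90.0% in mock libraries. The treatments did not overlap, and the difference was -2.59 points, with a pooled SD of 0.179 (exact two-sided permutation test, p = 0.33, the smallest possible). Over all gene bodies tested, the median of the differences per gene was -2.68 points. This is another measure than the sum, and a summed level over all gene bodies was not computed.

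**Figure D4:**
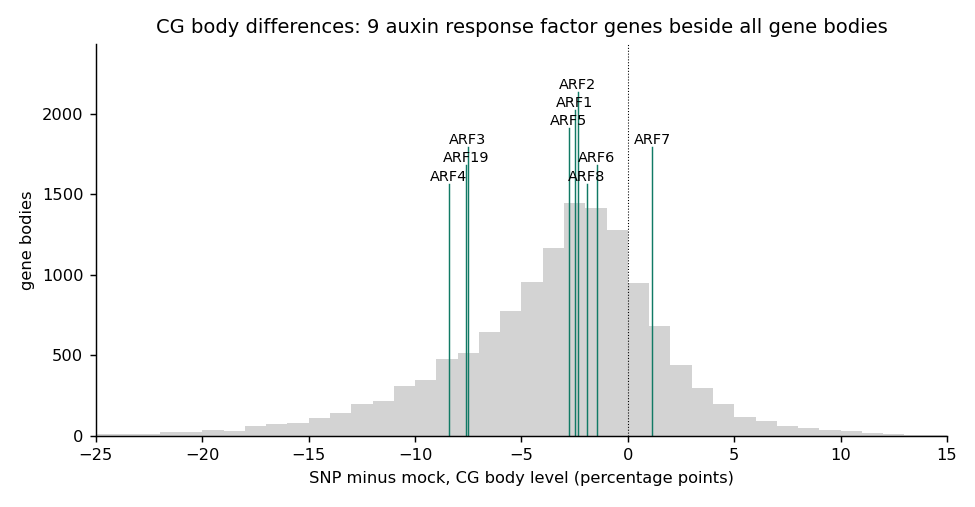
Difference in CG body level between SNP and mock (x axis, percentage points) in all 13379 gene bodies tested (histogram, number of gene bodies, the extremes not drawn) and in the 9 ARF genes tested (lines). ARF4, ARF19 and ARF3 lie at -8.43, -7.60 and -7.54 points, and the other 6 between -2.78 and 1.15 points.

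The upstream sequence differed from the bodies. In the 1 kb before the gene start, 8 of the 10 genes had only scattered sites. These were 58 in all contexts, each listed in a single library, of which 43 had 2 methylated reads and 32 were from mock 2. ARF8 and ARF4, however, each had a methylated stretch with sites listed in all libraries.

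In ARF8, 30 sites at 659 to 889 bp before the start were listed in all libraries, 12 in CG, 16 in CHG and 2 in CHH. They lie in the transcribed pseudogene AT5G37017, annotated at 14628221 to 14628847 on the minus strand of the same chromosome. All 12 CG cytosines of the stretch were listed in every library. This stretch is shown for its non-CG sites, which the ARF bodies lack, with 5 bases added on either side and capitals as above.
ARF8 upstream, chr5:14628559-14628799, plus strand: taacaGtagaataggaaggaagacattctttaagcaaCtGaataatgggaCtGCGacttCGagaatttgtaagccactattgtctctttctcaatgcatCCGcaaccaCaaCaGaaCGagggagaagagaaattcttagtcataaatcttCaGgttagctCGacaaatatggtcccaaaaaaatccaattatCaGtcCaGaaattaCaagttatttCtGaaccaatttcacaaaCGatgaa
The CG level was 86.4% and 85.2% in SNP libraries and 90.4% and 81.6% in mock libraries. The CHG level was 62.4% and 63.2% in SNP and 71.7% and 63.4% in mock libraries, which differed by -4.74 points with a pooled SD of 4.14. The mock libraries thus differed from each other by more than the SNP libraries did. Listed sites also lay outside the stretch. In the 1 kb, 21 CHG sites were listed, each in at least 2 libraries, and 16 of them lay in the stretch. Of 67 CHH sites listed in any library, 36 lay in it. By library, 38 and 26 CHH sites were listed in SNP and 18 and 16 in mock libraries. In SNP 1, 13 of the 38 lay 114 to 181 bp before the start, outside the stretch. Of the 15 sites listed there in this library, 14 had 2 methylated reads, and 1 was listed in another library, mock 2.

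In ARF4, 9 sites at 856 to 906 bp before the start were listed in all libraries, 2 in CHG and 7 in CHH. Listed CHH sites also lay outside this stretch. Of 23 in the 1 kb, 20 were listed in at least 2 libraries, and 10 of the 23 lay in the stretch. The stretch holds no CG and overlaps no annotated gene. It is printed because it was the only stretch of the 10 genes with shared sites but without any in CG.
ARF4 upstream, chr5:24313635-24313695, minus strand: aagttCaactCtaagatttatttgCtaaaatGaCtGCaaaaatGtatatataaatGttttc
The CHH level over the 7 sites was 68.6% and 72.5% in SNP libraries, against 66.7% and 47.5% in mock libraries. The treatments did not overlap and differed by 13.5 points, with a pooled SD of 9.78, but the mock libraries differed from each other by more than that. In SNP 1 only 35 reads covered these sites, compared with 80 in SNP 2, 81 in mock 1 and 80 in mock 2. The CHG level, from 12 to 23 reads, was 83.3% and 73.7% in SNP and 78.3% and 55.0% in mock libraries. Both differences rest on few sites and reads and were tested only as part of the whole gene region.

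**Figure D5:**
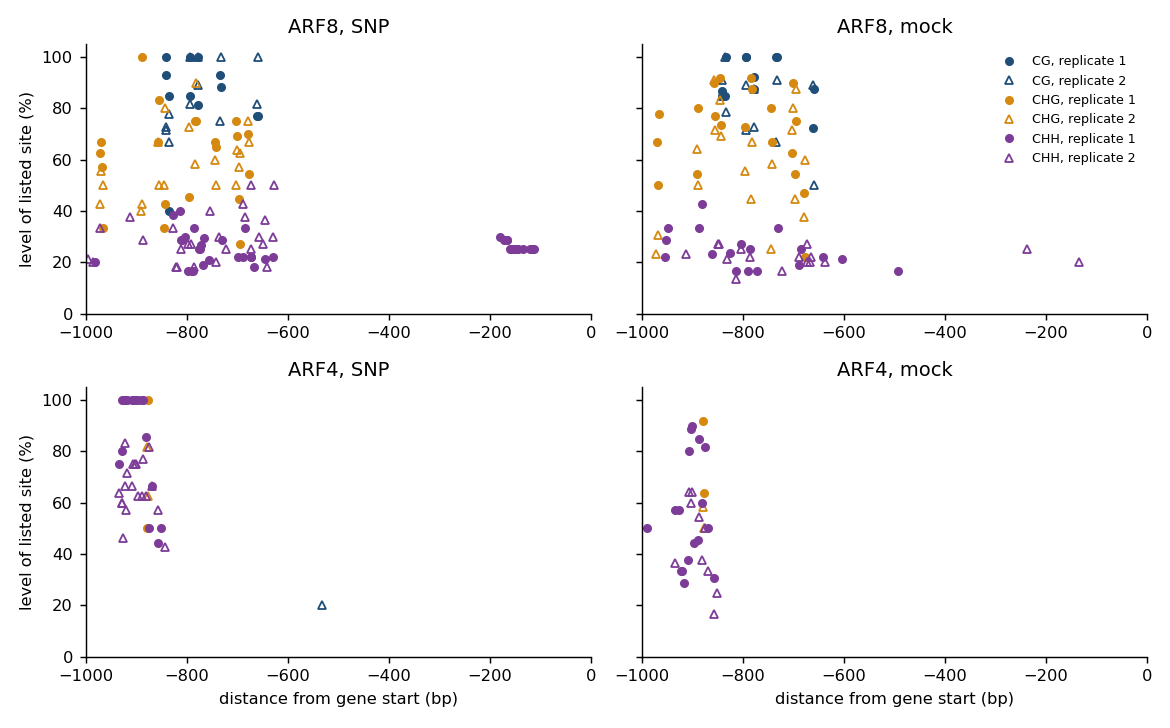
Level of each listed site (y axis, %) by distance from the gene start (x axis, bp) in the 1 kb upstream of ARF8 and ARF4, with SNP libraries on the left and mock libraries on the right and colours for context. Sites listed in all 4 libraries lie 659 to 889 bp before the start in ARF8 and 856 to 906 bp before it in ARF4. Sites listed in fewer libraries also lie outside these stretches.

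Summed over the 10 genes, 14 CG sites were listed upstream in each SNP library and 12 and 13 in mock libraries. CHG sites numbered 25 in each SNP library and 23 and 28 in mock libraries. CHH sites numbered 61 and 54 in SNP and 40 and 50 in mock libraries, a difference of 12.5 sites against a pooled SD of 6.10 (exact two-sided permutation test, p = 0.33, the smallest possible). Without mock 1 the difference was 7.5 sites. When gene and upstream sequence were tested together with all contexts summed, ARF19 was called lower among the 9 tested ARF genes, with an adjusted p of 0.0243 (edgeR), compared with 2.44% of 14097 regions called lower. In this test ARF4, whose region adds 4 upstream sites, had a difference of -5.88 points and an adjusted p of 0.0837 (edgeR).

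Auxin response elements were searched in the same 1 kb as TGTCTC and TGTCGG on both strands, motifs that share their first 4 bases but do not overlap in a hit. ARF1 had 2 TGTCTC and ARF3, ARF4, ARF8 and ARF19 had 1 each, and TGTCGG was found once in ARF7 and once in ARF19. Of the upstream sequences of all 27444 genes, 39.6% held TGTCTC and 14.6% held TGTCGG. The TGTCTC of ARF8, 809 bp before the start, lies within the methylated stretch printed above and had 3 sites listed in any library and 0 in all. At the TGTCTC of ARF3, 1 site was listed in any library, and at the other 6 hits 0.

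Other auxin pathway genes were mostly without body methylation or without a called difference. Of 29 Aux/IAA genes, 23 had 0 CG body sites shared by all libraries, and of the 4 that could be tested 0 were called by edgeR, with 1 at an unadjusted p under 0.05. Of 6 TIR1/AFB receptor genes 4 were tested, with 0 called by edgeR and 0 at an unadjusted p under 0.05. Of the 5 other arm ARF genes 4 were tested and of the pericentromeric ARF genes all 8, with 0 called and 1 at an unadjusted p under 0.05 in each group (edgeR). Fisher's exact test on pooled reads called 1 Aux/IAA, 0 TIR1/AFB, 2 other arm ARF and 1 pericentromeric ARF genes, and 28.1% of all gene bodies. The pericentromeric genes had CG levels between 90.3% and 95.8%, and their median difference was 0.458 points. The 3 auxin synthesis genes examined (TAA1, YUC1 and YUC4) had too few CG body sites for this test.

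All 5 genes of the TPL family were tested, and 1 was called lower, the corepressor gene TPL itself. Its level over 104 sites was 85.5% and 89.5% in SNP libraries, against 92.9% and 91.4% in mock libraries. The difference was -4.68 points with an adjusted p of 0.0360 (edgeR). It was -2.72 points with an adjusted p of 0.506 without SNP 1 and -3.92 points with an adjusted p of 0.249 without mock 1 (edgeR). With exons only it was -4.35 points with an adjusted p of 0.0733 (edgeR).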

How the data were processed

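EM-seq lists of 2 SNP and 2 mock libraries were used. Per the labels, FastQC and Bismark were applied by the authors, with TAIR10 as the build, and no versions were given in the sources used here. Each deposited row holds a level as a fraction and the read count (depth) of a called cytosine, and the authors normalized neither. Level times depth was whole in 100% of rows, which gave counts of methylated reads. Every listed site had at least 2 methylated reads. On chromosomes 1 to 5, 100% of listed positions matched a cytosine of RefSeq TAIR10.1 on the strand given, whose gene models were used.

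The study's methods asked for 10 reads per site. Here 5 reads were required, because few sites remained at 10. Reads were summed per gene body (at least 5 sites) or region (gene plus 1 kb, all contexts, a minimum of 10 sites and a 1% level) and tested in edgeR 4.0.16 (R 4.3.3, limma 3.58.1) with a term per library, no covariates, and Benjamini-Hochberg adjustment at 0.05. A read covering several sites was counted at each. Intervals and limits cover counting error only. The p-values of edgeR and of the permutation tests rest on the spread between these libraries, which edgeR estimates with information shared across gene bodies. Those of Fisher's exact test leave this spread out. Data were also simulated with the real depths and a set spread between libraries (overdispersion 0.01), which was not estimated from these libraries. The lowered bodies were drawn from well-methylated ones with at least 100 reads per library. Of these, 18 of 100 lowered by 15 points and 73 of 100 lowered by 30 points were recovered among 13379. In addition, 6 unchanged bodies were called. Recovery at another spread was not simulated, so these shares need not hold for the real libraries. Permutation tests were exact. Python 3.11.15, numpy 2.4.6, pandas 2.3.3, scipy 1.17.1 and matplotlib 3.10.9 were used. All 10 ARF genes are named, and from the auxin list the genes that passed the test. The genes and lists were chosen with earlier results of these data known. Alternatives were other depth and site minimums, exons only, the mean of site levels, Fisher's exact test, a replicate block and leaving out each library.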

Additional observations from a re-analysis of the deposited data

How the results depend on the processing

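Differences of the 9 ARF genes kept their direction and their side of the threshold in most alternatives, and the exceptions follow. At a minimum depth of 10 reads, 0 gene bodies and 1 region were called, the differences of ARF19 (0.0530 points) and ARF8 (2.28 points) changed direction, and ARF4 (-7.37 points) was no longer called. The cause was not tested, but this minimum left 95 of 672 sites, over which the summed difference was -1.62 points. With exons only, 395 gene bodies were called and the summed difference was -2.34 points. Fisher's exact test on pooled reads, which ignores the spread between replicates, called 3760 bodies, ARF1 and ARF3 among them. With every site listed in all libraries, 621 regions were called. Leaving out each library gave 141 to 486 called bodies and 52 to 470 called regions, fewest without SNP 1, against 672 and 355 with all libraries. ARF4 lost its call without SNP 1, and ARF19 without SNP 1 or mock 1. Among genes not called, leaving out each library gave differences from -10.6 to -4.45 points in ARF3. The range was -4.36 to -1.20 points in ARF5 and -2.34 to -0.571 points in ARF6. At a minimum depth of 10 reads the difference of ARF5 was -6.23 points.

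The replicate numbers of the titles name no shared pool, and the deviations of same-numbered libraries had a correlation of -0.0018 across gene bodies, so they were not taken as pairs. With the replicate block, 537 bodies and 600 regions were called, and ARF4 (adjusted p = 0.00192, edgeR) and ARF19 (0.0135) were called as before.

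Counts depended on the entry rule. CG body sites with at least 5 reads differed by -14 between treatments. Upstream CG sites with at least 3 methylated reads differed by -0.500. Leaving out each library gave differences of 1 to 2 upstream CG sites, of -3 to 2 upstream CHG sites and of 7.5 to 17.5 upstream CHH sites. The share of CG body sites common to a pair was 89.5% for SNP with at least 3 methylated reads, 81.4% for SNP and 85.4% for mock with at least 5 reads, and 34.4% and 40.1% with at least 10 reads. Under the rule of at least 10 reads a site counts as shared only if both libraries reach that depth, so a fall follows from the rule itself. Over all gene bodies the shares at 10 reads were 30.5% for SNP and 36.9% for mock. In the simulation, whose spread between libraries was set and not estimated from these libraries, 18 of 100 drops of 15 points were recovered. That share need not hold for the real libraries, where edgeR called smaller differences, such as -8.43 points in ARF4 and -4.68 points in TPL.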
